A study of Rattus norvegicus with 9 samples.

Results

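Proximal tubule genes of phosphate, sodium and sulfate transport were examined in whole kidneys of 9 rats, by every probe set on the array that carried the symbol of 1 of 8 genes. The genes were Slc34a1, Slc9a3, Nherf1, Pdzk1, Slc13a1, Slc13a3, Slc26a1 and Slc4a4. They are 8 of 10411 genes with a probe set of their own symbol, and had 12 probe sets among 15866, 2 each for 4 of the genes, and each probe set, a group of short probes for 1 transcript, was kept apart. The series concerns hypotension, and its labels divide the animals into 4 Case rats (animals 3, 5, 7 and 8) and 5 Control rats (animals 4, 9, 10, 11 and 12), with 1 array of total kidney RNA per rat. The labels name no strain, sex, age, agent or blood pressure for either group, so the words Case and Control are used as given. In RNA of a whole kidney, fewer cells of a type and less RNA per cell cannot be told apart.

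The proximal tubule is the first segment of the nephron and recovers most of the filtered sodium, bicarbonate, phosphate and sulfate. At the brush border, the luminal membrane of its cells, sodium-phosphate, sodium-sulfate and sodium-proton transporters use the sodium gradient, and scaffold proteins with PDZ domains hold several of them in place. On the basolateral side, facing the blood, bicarbonate, sulfate and dicarboxylates cross by other transporters. The phosphate transporter and the sodium-proton exchanger are regulated in large part by moving the protein in and out of the membrane, which an RNA array does not measure.

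RefSeq promoter entries (GRCr8) were found for all 8 genes. The 150 bases before the annotated start are shown for the phosphate transporter gene Slc34a1 and the scaffold genes Pdzk1 and Nherf1, because these encode a cargo of the brush border and the proteins that bind it. Capitals mark matches on either strand to 3 short motifs. The first was GTTAAT, known as a half-site of the factor HNF1. The second was CAAAGTCCA, known as a site of the factor HNF4. The third was TATAAA, the letters of the TATA box. HNF1 and HNF4 are transcription factors of the proximal tubule.
Slc34a1, chr17:9238984-9239133, minus strand: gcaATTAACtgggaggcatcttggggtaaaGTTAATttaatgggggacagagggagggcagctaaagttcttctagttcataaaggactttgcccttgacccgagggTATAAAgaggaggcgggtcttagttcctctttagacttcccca
Pdzk1, chr2:187064845-187064994, plus strand: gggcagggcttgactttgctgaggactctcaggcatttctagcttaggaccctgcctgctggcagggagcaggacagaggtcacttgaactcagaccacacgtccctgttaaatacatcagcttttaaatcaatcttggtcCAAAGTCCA
Nherf1, chr10:100902015-100902164, plus strand: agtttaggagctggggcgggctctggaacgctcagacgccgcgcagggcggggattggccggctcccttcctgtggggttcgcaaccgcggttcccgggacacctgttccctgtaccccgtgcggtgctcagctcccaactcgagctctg
In the 250 bases before the start, GTTAAT was present in 1 of the 8 genes, Slc34a1, where it occurred once on each strand, and in 6.45% of 33469 promoters. CAAAGTCCA was present in Pdzk1 alone and in 0.338% of promoters, and TATAAA in Slc34a1 and Slc13a1 and in 12.9% of promoters. The matches in Slc34a1 and Pdzk1 did not overlap each other, and those in Slc13a1, farther from the start than the bases shown for the other genes, overlapped on the 2 strands. The motifs were chosen with these promoters already seen, and a match is a description of the letters only.

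No probe set of the 8 genes passed the test between Case and Control kidneys, and a dim probe set of the scaffold gene Nherf1 was furthest from 0. Differences were fitted with limma, a linear model for arrays, on log2(signal + 5.03) over the 9519 probe sets that passed a filter on dim signals, and all 12 passed it. Of the 12 probe sets, 0 had an adjusted p under 0.05 by limma, where 0% of the 9519 tested probe sets were called in either direction. At an unadjusted p under 0.05 there was 1 member, 8.33% of the 12 and lower in Case, against 6.69% of all probe sets tested in either direction and 3.81% in that direction. That member was Nherf1 1370032_at, which passed the filter only through the Controls, as described below, so nothing is read from the count. The count was 0 with the filter at the 60th percentile or without Control animal 10 or 11, where that probe set was not tested. It was 3 with median centring, with array weights or without Case animal 5, and 4 without Control animal 4. Of all 9519 probe sets, 726, 802, 1064 and 640 had such a p in these settings, in that order. In the other alternatives the count was 1 or 2. The groups overlapped for all 12, while 1.88% of all probe sets had groups that did not overlap, 0.977% with Case higher and 0.903% with Case lower. Differences were below 0 for 8 and above 0 for 4, and of all probe sets 54.0% lay below 0 and 46.0% above. The median log2 difference (Case minus Control) was -0.16 over the 12 and -0.02 over all tested. The 95% interval of the difference included 0 for 11 of the 12, and for 10 of the 12 it stayed within 1 log2 unit either way. For 4 of the 12 the interval stayed within 0.5 log2 units either way, and at the other 8 it reached beyond that.

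**Figure D1:**
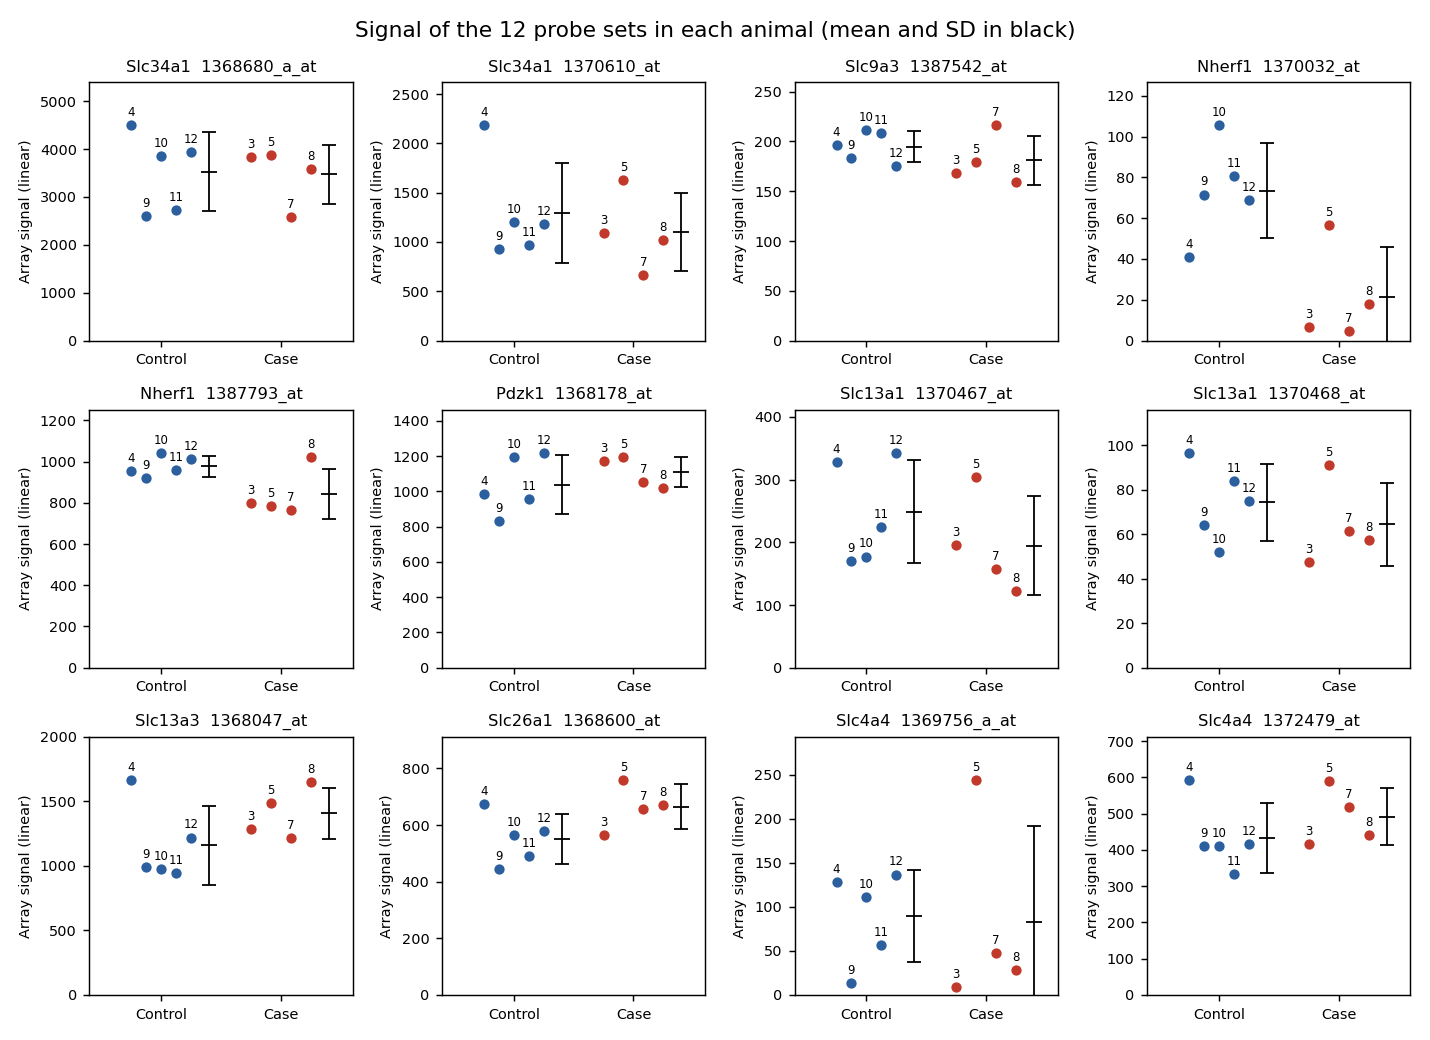
Array signal on a linear scale (vertical axis) of each probe set in each animal, with animal numbers beside the points, Control in blue and Case in red, and the mean with SD as a black bar that is cut at 0. Groups overlap in every panel, and Nherf1 1370032_at has 3 Case animals between 4.9 and 17.7, below every Control.

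Slc34a1 encodes the main sodium-phosphate cotransporter of the brush border. At probe set 1368680_a_at, the Case signals were 3840.3, 3885, 2578 and 3585 in animals 3, 5, 7 and 8, and the Control signals were 4495, 2598, 3858, 2731 and 3947 in animals 4, 9, 10, 11 and 12. Animal 7 had the lowest value of all and Control animal 4 the highest, and the groups overlapped. The Case mean was 3472 ± 611 (SD, n = 4) and the Control mean 3526 ± 825 (SD, n = 5), with a log2 difference of -0.01 ± 0.18 (SE, 95% interval -0.40 to 0.39, limma adjusted p = 0.999). The sign was not stable and turned to 0.081 with each array centred on its median, to 0.066 with array weights and to 0.13 with the actin ratio described below as a covariate.

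The other Slc34a1 probe set, 1370610_at, was annotated to a separate database sequence of the gene. It gave 1094, 1624, 668 and 1019 in Case animals 3, 5, 7 and 8, and 2183, 932, 1201, 971 and 1185 in Control animals 4, 9, 10, 11 and 12. Control animal 4 was again the highest and Case animal 7 again the lowest, and the groups overlapped. The log2 difference was -0.23 ± 0.27 (SE, interval -0.80 to 0.35, limma adjusted p = 0.924). Blocking by fluidics run, a batch inferred from array times as described below, gave -0.53. Inside run 1, where animal 4 was the lone Control, the difference was -1.04, and inside run 2 it was -0.01.

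Nherf1 encodes a scaffold with PDZ domains that binds the phosphate transporter and the sodium-proton exchanger beneath the brush border, and its 2 probe sets differed in the size of the difference between the groups. At 1370032_at, Case animals 3, 5, 7 and 8 had signals of 6.7, 56.8, 4.9 and 17.7, and Control animals 4, 9, 10, 11 and 12 had 40.8, 71.6, 105.5, 80.9 and 68.8. Animals 3, 7 and 8 lay below every Control, and animal 5 lay above Control animal 4. These were dim values, at percentiles 14.4, 13.1 and 27.2 of the signals on the same array in animals 3, 7 and 8, and between percentiles 40.7 and 70.9 in the Controls. The Case mean on the log2 scale was 4.33 and the Control mean 6.24, on either side of the filter level of 5.26 (a signal of 33.3), so the probe set passed the filter only through the Controls, while both group means of the other 11 lay above it. A probe set kept in this way had to differ, and its difference and p are given as a description that supports nothing. The log2 difference was -1.91 ± 0.45 (SE, interval -2.88 to -0.94), with unadjusted p = 0.000985 and limma adjusted p = 0.521. This gene had been noticed for its small p in an earlier analysis of these arrays, so the p is no independent evidence. The ratio of Gapdh signal at the 3' end to that at the 5' end, a measure of RNA quality, was 2.09, 2.39 and 1.93 in the low animals 3, 7 and 8, above every Control (1.56 to 1.79), and 1.55 in animal 5. The actin ratio described below was 1.57, 3.05 and 3.11 in animals 3, 7 and 8, 1.52 in animal 5 and 1.12 to 1.998 in the Controls. By that ratio, animal 3 lay inside the range of the Controls. The part of the Gapdh ratio in the difference was not tested.

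Without Case animal 5 the difference at Nherf1 1370032_at was -2.45 and passed the threshold (limma adjusted p = 0.00971). In that setting 53 of all 9519 probe sets passed it, against 0 in the main fit. Over 17 alternatives the limma adjusted p of Nherf1 1370032_at ran from 0.00971 to 0.9998. Animal 5 was the 1 Case animal above the filter level, so this setting leaves out the animal that went the other way, and nothing is read from the call. Without Control animal 10 or 11, this probe set dropped below the filter on dim probe sets and had no value. The size depended on the constant added before logs, with -2.32 at a pseudocount of 1% of the median signal and -1.17 at 50%. Blocking by fluidics run gave -1.62, with -1.25 inside run 1 and -1.98 inside run 2. The actin ratio as a covariate gave -1.59.

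At the other Nherf1 probe set, 1387793_at, Case animals 3, 5, 7 and 8 had 798, 785, 767 and 1021, and Control animals 4, 9, 10, 11 and 12 had 953, 919, 1044, 958 and 1010.4. Animals 3, 5 and 7 lay below every Control, and animal 8 lay among them. The means were 843 ± 119.7 (SD, n = 4) and 977 ± 49.6 (SD, n = 5), with a log2 difference of -0.22 ± 0.11 (SE, interval -0.47 to 0.02, limma adjusted p = 0.784). Animal 5 was the highest Case animal at the dim probe set and lay below every Control at this one, and animal 8 was the reverse. Animals 3, 5 and 7 were the Case animals of fluidics run 1, and the difference was -0.28 inside that run, 0.07 inside run 2, and -0.11 when runs were blocked. Both probe sets were annotated to the same RefSeq transcript, and the positions of their probes in it were not used here.

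Pdzk1 encodes a further brush border scaffold, with several PDZ domains. Its signals were 1171, 1197, 1056 and 1021 in Case animals 3, 5, 7 and 8, and 987, 830.3, 1196, 959.6 and 1221 in Control animals 4, 9, 10, 11 and 12. The Case values lay inside the range of the Controls. Case exceeded Control by a log2 difference of 0.11 ± 0.13 (SE, interval -0.17 to 0.39, limma adjusted p = 0.927).

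Slc9a3 encodes the sodium-proton exchanger of the brush border, through which much of the filtered sodium and bicarbonate is recovered. Its signals were 169, 179, 216 and 159.7 in Case animals 3, 5, 7 and 8, and 197, 184, 211, 208 and 175 in Control animals 4, 9, 10, 11 and 12. The groups overlapped, with animal 7 above every Control and animals 3 and 8 below every Control. On the log2 scale Case minus Control was -0.11 ± 0.12 (SE, interval -0.38 to 0.16, limma adjusted p = 0.921). Over the 9 animals the highest signal was 1.35 times the lowest, the narrowest spread of the 12 probe sets.

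Slc4a4 encodes the sodium-bicarbonate cotransporter that passes bicarbonate to the blood. At probe set 1372479_at, Case animals 3, 5, 7 and 8 had 417, 589, 518 and 442, and Control animals 4, 9, 10, 11 and 12 had 594, 411, 412, 333 and 416. All 4 Case values lay above 4 of the 5 Controls and below animal 4. The log2 difference was 0.19 ± 0.16 (SE, interval -0.16 to 0.54, limma adjusted p = 0.886), and blocking by fluidics run turned it to -0.0175.

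At the other Slc4a4 probe set, 1369756_a_at, the 9 animals ran from 9.0 to 244, a ratio of 27.1, the widest of the 12. The Case values were 9.0, 244, 47.7 and 27.8 in animals 3, 5, 7 and 8, so the lowest and the highest animal were both Case. The Control values were 128, 13.7, 111, 56.9 and 137 in animals 4, 9, 10, 11 and 12. Case minus Control was -0.62 ± 0.74 on the log2 scale (SE, interval -2.21 to 0.98, limma adjusted p = 0.927), and leaving out single animals moved it between -1.39 and -0.01, with -1.39 without Case animal 5 and -0.01 without Case animal 3.

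Slc13a1 encodes the sodium-sulfate cotransporter of the brush border, which takes up filtered sulfate. At probe set 1370467_at, Case animals 3, 5, 7 and 8 had 196, 304, 158 and 122, and Control animals 4, 9, 10, 11 and 12 had 328, 169.6, 177, 225 and 343. Animals 7 and 8 lay below every Control, and animal 5 lay near the highest ones. Case minus Control was, as log2, -0.36 ± 0.27 (SE, interval -0.94 to 0.22, limma adjusted p = 0.861). At 1370468_at the signals ran from 47.6 to 91.3 in Case and from 52.1 to 96.8 in Control, with a log2 difference of -0.20 ± 0.21 (SE, limma adjusted p = 0.910). Blocking by fluidics run gave -0.62 for the first probe set and -0.36 for the second. Inside run 1 they differed by -0.62 and -0.55, and inside run 2 by -0.62 and -0.17.

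Slc26a1 encodes the sulfate-anion exchanger of the basolateral membrane, which passes sulfate on to the blood. Case animals 3, 5, 7 and 8 had 566, 760.3, 658 and 672, and Control animals 4, 9, 10, 11 and 12 had 675, 446, 566, 492 and 577. Animal 5 lay above every Control, and all 4 Case values were above 3 of the 5 Controls. The means were 664 ± 79.4 (SD, n = 4) and 551 ± 87.9 (SD, n = 5), with a log2 difference of 0.27 ± 0.14 (SE, interval -0.02 to 0.57, limma adjusted p = 0.784). It was 0.19 when runs were blocked, -0.04 inside run 1 and 0.43 inside run 2.

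Slc13a3 encodes a sodium-dicarboxylate cotransporter of the basolateral membrane, which takes up citric acid cycle intermediates. Its signals were 1282, 1489, 1212 and 1647 in Case animals 3, 5, 7 and 8, and 1667, 989.9, 974.6, 942.5 and 1219 in Control animals 4, 9, 10, 11 and 12. Animal 4 was the highest of all, while 3 other Controls lay below every Case animal. The means were 1408 ± 198 (SD, n = 4) and 1159 ± 305 (SD, n = 5), with a log2 difference of 0.30 ± 0.17 (SE, interval -0.06 to 0.67, limma adjusted p = 0.799). It was 0.22 when runs were blocked, -0.33 inside run 1 and 0.76 inside run 2. Animal 4 was the lone Control of run 1 and animal 8 the lone Case animal of run 2. The difference in sign therefore rests on 1 animal in each run.

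**Figure D2:**
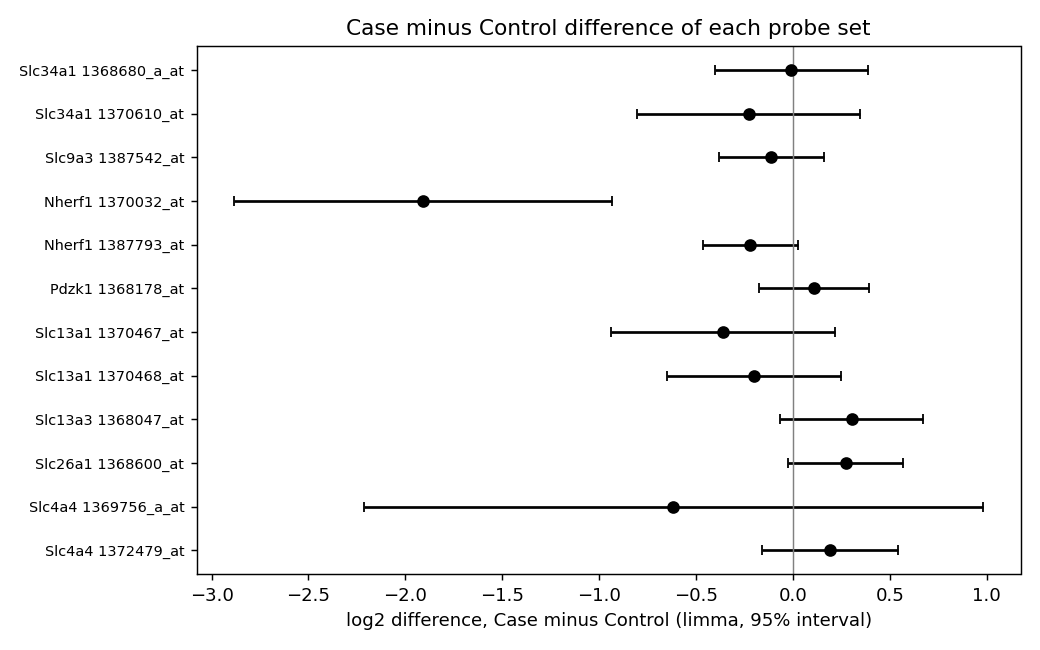
The log2 difference, Case minus Control (horizontal axis), of each probe set with its 95% interval from limma over 4 Case and 5 Control animals. The interval of Nherf1 1370032_at, -2.88 to -0.94, is the 1 that does not reach 0, and that of Slc4a4 1369756_a_at, -2.21 to 0.98, is the widest. Nherf1 1370032_at passed the filter only through the Controls, so its interval is a description that supports nothing.

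The arrays were scaled alike, with median signals from 45.2 to 55.6. They were grouped into 3 fluidics runs, inferred from the hybridize date and time of each array. A new run was set at a gap of 10 minutes or more, so the runs are an inference and not a recorded label. Run 1 held Case animals 3, 5 and 7 and Control animal 4, run 2 held Case animal 8 and Control animals 9, 10 and 11, and run 3 held Control animal 12. Each difference given inside run 1 thus rests on Control animal 4 alone, and each inside run 2 on Case animal 8 alone, against the other group. The ratio of actin signal at the 3' end to that at the 5' end, which rises as RNA shortens, was 3.05 and 3.11 in Case animals 7 and 8 and between 1.12 and 1.998 in the other 7. The Gapdh ratio was 1.93 to 2.39 in Case animals 3, 7 and 8, above every Control (1.56 to 1.79), and 1.55 in Case animal 5. It was not used as a covariate, and its part in the values of these genes was not tested. Without animals 7 and 8, a setting chosen after seeing the data, the median log2 difference over the 12 probe sets was 0.08, and that of Nherf1 1370032_at was -1.49.

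Correlations between the actin ratio, as log2, and each of the 12 probe sets over the 9 animals gave 0 with an adjusted p under 0.05 by exact permutation, and at an unadjusted p there were 0 by Pearson's r and 1 by Spearman's rho. For Nherf1 1370032_at, Pearson's r was -0.59 (exact permutation p = 0.0958, adjusted over 12 relations 0.614), Spearman's rho was -0.40 (exact permutation p = 0.291, adjusted 0.582), and r was -0.08 without animals 7 and 8 and -0.43 within groups. For Slc34a1 1370610_at, r was -0.55 (exact permutation p = 0.118, adjusted 0.614), rho was -0.70 (exact permutation p = 0.0433, adjusted 0.519), and r was -0.21 without animals 7 and 8 and -0.51 within groups. Animals 7 and 8 had the highest actin ratios, so leaving them out also narrows the range over which r is taken.

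Among the animals, Control animal 4 and Case animal 5, both of run 1, most often had values of these genes above the 9-animal mean. Case animals 3 and 7, of the same run, lay above it at 3 probe sets each, with median log2 deviations of -0.11 and -0.19. Animal 4 was the highest of the 9 animals at 5 of the 12 probe sets and lay above the 9-animal mean at 11, with a median log2 deviation of 0.39. Animal 5 was the highest at 2, as were Control animals 10 and 12, and lay above the mean at 10, with a median deviation of 0.37. Control animal 9 lay above the mean at 2, with a median deviation of -0.31, and Case animal 7 was the lowest animal at 4.

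**Figure D3:**
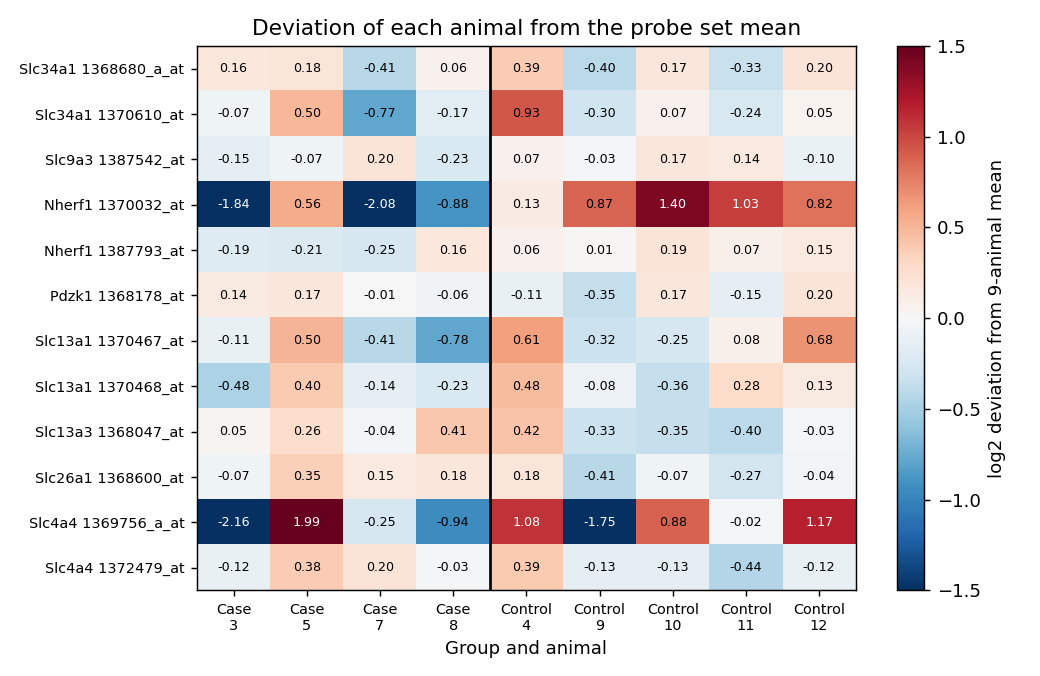
Deviation of each animal's log2 signal from the 9-animal mean of that probe set (colour and printed value), with probe sets in rows and Case, then Control animals in columns; colours end at 1.5 either way. Control animal 4 and Case animal 5 are positive in most rows, and the row of Nherf1 1370032_at is negative in Case animals 3, 7 and 8.

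Probe sets of the same or of different genes varied together across animals in part. Over the 66 pairs of probe sets, the median Pearson r was 0.27, and r was above 0 in 49 pairs. By exact permutation of Pearson's r, 0 pairs had an adjusted p under 0.05 and 7 an unadjusted one, and of Spearman's rho 2 had an adjusted p under 0.05. The pairs share each animal's RNA, array and scaling. The 2 Slc34a1 probe sets had r = 0.83 (exact permutation p = 0.00267, adjusted 0.176) and Spearman's rho = 0.95 (exact permutation p = 0.00035, adjusted 0.0233), with r = 0.73 without animals 7 and 9. Within groups their r was 0.85. Slc26a1 and Slc4a4 1372479_at had r = 0.81 (exact permutation p = 0.00876, adjusted 0.193) and rho = 0.93 (exact permutation p = 0.00075, adjusted 0.0247), with r = 0.89 without animals 5 and 9 and 0.79 within groups. With the other Slc4a4 probe set, 1369756_a_at, Slc26a1 had r = 0.54 (exact permutation p = 0.137, adjusted 0.537). That r was 0.04 without animals 5 and 9 and 0.87 within groups. The 2 Slc4a4 probe sets had r = 0.46 (exact permutation p = 0.218, adjusted 0.600). Slc13a3 and Slc26a1 had r = 0.82 (exact permutation p = 0.00809, adjusted 0.193) and rho = 0.83 (exact permutation p = 0.00827, adjusted 0.136), with r = 0.83 without animals 4 and 8 and 0.75 within groups. The 2 Nherf1 probe sets had r = 0.61 (exact permutation p = 0.0776, adjusted 0.537) and rho = 0.58 (exact permutation p = 0.108, adjusted 0.485). Their r fell to 0.19 within groups, where animals 3 and 7 are kept and the group means removed. Without animals 3 and 7 it was -0.04.

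Of all tested probe sets with 1 symbol, those most like Slc34a1 1368680_a_at over the 9 arrays by Pearson r were Plod1 (0.98), G6pc3 (0.98) and Mark4 (0.96). For Slc34a1 1370610_at they were Nme3 (0.98), Casz1 (0.97) and Ppp1r9b (0.97). Those most like Nherf1 1370032_at were Plau, Arf1 and Golph3 (0.94 each), and those most like Nherf1 1387793_at were Samd13 (0.87), Pcgf3 (0.86) and C8h11orf71 (0.86). The 2 probe sets of each gene had no such neighbour in common. These are the highest of a very large number of r values over 9 arrays and describe likeness only.

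Other genes of these pathways, from lists that were written with earlier results of these arrays known, also gave 0 calls at an adjusted p under 0.05. Of the phosphate list, 13 of 19 genes were tested with 17 probe sets, with a median log2 difference of -0.18. Of these, 5 lay above 0 and 12 below, where 54.0% of all probe sets tested lay below 0. In it, 1 probe set had an unadjusted p under 0.05, 5.88% of the 17 against 6.69% of all tested. It was a probe set of Nherf2, a scaffold related to Nherf1, with signals from 36.0 to 79.3 in Case. Its Control signals ran from 53.0 to 85.2. Its log2 difference was -0.49 ± 0.22 (SE, limma adjusted p = 0.731), and the groups overlapped. The other tested Nherf2 probe set lay above 0, with a log2 difference of 0.12 ± 0.24 (SE, limma adjusted p = 0.965). Nherf2 was therefore not lower in Case by both of its tested probe sets. Of the list of sodium and bicarbonate transport, 10 of 18 genes were tested with 13 probe sets, 0 of them at an unadjusted p under 0.05, and the median was -0.04.

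Of the list of sulfate and dicarboxylate handling, 10 of 17 genes were tested with 10 probe sets, 9 of them above 0, and the median was 0.23. In it, 2 had an unadjusted p under 0.05, both higher in Case against 2.88% of all probe sets tested. Papss2, which makes the activated sulfate used by sulfotransferases, ran from 116 to 229.7 in Case and from 109 to 150 in Control. The log2 difference was 0.49 ± 0.19 (SE, limma adjusted p = 0.644). Sult1a1, a sulfotransferase, ran from 249.8 to 434 in Case and from 160 to 292 in Control, with a log2 difference of 0.75 ± 0.19 (SE, limma adjusted p = 0.531). In both, the lowest Case animal lay below the highest Control, so the groups overlapped.

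Of the 16 listed marker genes of the proximal tubule, 15 had a probe set that passed the filter on dim signals. No detection calls were used, so presence on each array was not tested. All 16 listed genes were measured, and none had a median signal under 10. Their summed signal, over the brightest probe set of each gene, ran from 17539 to 23840 in Case, with 23840 in animal 3 and 17539 in animal 7, and from 18132 to 22067 in Control. Of 17 tested probe sets, 8 had a difference above 0 and 9 below, with a median log2 difference of -0.07. Of them, 0 passed the adjusted threshold and 3 had an unadjusted p under 0.05, 17.65% against 6.69% of all tested. Slc2a2 was higher, with a log2 difference of 0.53 ± 0.20 (SE, limma adjusted p = 0.644). Gatm was lower, with -0.34 ± 0.14 (SE, limma adjusted p = 0.678), as was 1 probe set of Hnf4a, a transcription factor of this segment. That Hnf4a probe set ran from 44.6 to 244 in Case and from 167 to 232 in Control, a log2 difference of -0.86 ± 0.35 (SE, limma adjusted p = 0.677). The other Hnf4a probe set had -0.49 ± 0.25 (SE, limma adjusted p = 0.784).

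The same sums overlapped between the groups in all lists of other cells, and for smooth muscle only narrowly. The thick limb and distal tubule sums ran from 7021 to 9689.9 in Case and from 7328 to 9257 in Control, with Pvalb under a median signal of 10. Those of smooth muscle and mesangium, over all 6 listed genes, ran from 284 to 359.5 in Case and from 359 to 396 in Control. Case animals 3, 7 and 8 lay below every Control, and the overlap was that of Case animal 5 (359.5) with Control animal 9 (358.9). All 6 smooth muscle probe sets had a difference below 0, where 54.0% of all tested did, with a median log2 difference of -0.32. At an unadjusted p under 0.05, 2 of them were lower in Case, 33.33% against 3.81% of all tested, and 0 passed the adjusted threshold. One was Myh11, the heavy chain of smooth muscle myosin, with a log2 difference of -0.43 ± 0.14 (SE, limma adjusted p = 0.644), and the other Rgs5. Collecting duct sums over 6 genes ran from 1105 to 2059 in Case and from 1359 to 2325 in Control, and podocyte sums over 4 genes from 441 to 682 and from 474 to 639.8. Endothelial sums over 4 genes ran from 451 to 659.9 in Case and from 523 to 639.9 in Control. Of 5 endothelial probe sets, 2 were above 0 and 3 below, with a median of -0.17, and 2 were lower at an unadjusted p under 0.05, those of Esam and 1 of Egfl7 (against 3.81% of all tested), with 0 past the adjusted threshold. Leukocyte sums over 5 genes ran from 764 to 1422 in Case and from 874 to 1742 in Control, with Itgam under a median signal of 10. Most of that sum was Cd74, with means of 1064 in Case and 1090 in Control. Blood cell sums over 2 genes ran from 1319 to 2014 and from 1232 to 2469. The sums of 4 adrenal cortex genes ran from 44.6 to 68.7 and from 43.9 to 124, with Cyp11b1 and Hsd3b1 under a median signal of 10, those of 5 liver genes from 91.4 to 149 and from 84.5 to 159.8, and those of 3 adipose genes from 26.7 to 124 and from 32.9 to 89.9. At an unadjusted p under 0.05, 1 of 6 podocyte probe sets (of Podxl) was lower, 16.67% against 3.81% of all tested. There were 0 among the 5 thick limb and distal tubule and 8 collecting duct probe sets tested. Only 2 leukocyte, 2 blood, 1 adrenal and 1 liver probe set were tested, with 0 at that p, which says little of those cells. No adipose probe set was tested. The part of these cells in the transporter values was not tested.

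**Figure D4:**
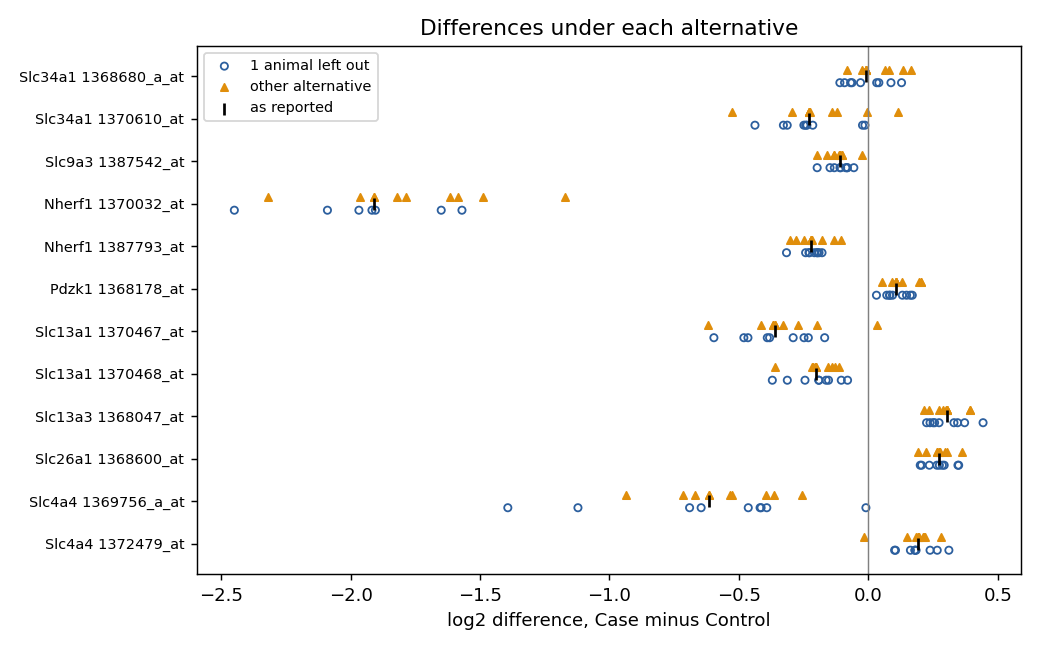
The log2 difference of each probe set (horizontal axis) as reported, with 1 animal left out (circles) and under each other alternative (triangles). All values of Nherf1 1370032_at lie between -2.45 and -1.17, those of Slc13a3 between 0.22 and 0.44 and those of Slc26a1 between 0.19 and 0.36, while those of Slc34a1 1368680_a_at lie on both sides of 0. Nherf1 1370032_at passed the filter only through the Controls, so nothing is read from its sign.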

How the data were processed

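Each of the 9 rats gave 1 array of kidney RNA, of the Affymetrix type RAE230A per the file headers. The deposited table holds 1 linear signal intensity per probe set, already scaled by the authors, since all arrays had a mean of 100.02 or 100.03 once the outer 2% at either end were trimmed. Which software summarised the probes is not given in the sources used here, and no detection calls were used. Symbols came from the platform annotation, updated by Entrez ID. Signals were used as log2(signal + 5.03), the constant being 10% of the median, so differences of dim probe sets are understated. Probe sets above the 40th percentile of mean log2 signal, near a signal of 33.3, were kept (9519 of 15866), and all 12 members passed, 1 of them through the Controls alone. Case and Control were compared by limma 3.58.1 (R 4.3.3; lmFit, eBayes with trend), 2-sided, with Benjamini-Hochberg adjustment over all probe sets and a threshold of 0.05. The fit was tested on simulated data. Animals are unpaired, and their number limits the precision. The block by run leaves Control animal 12, alone in its run, without weight in the difference. Alternatives covered pseudocount, filter, normalization, trend, weights, run, actin ratio and animals left out.

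Members, lists and tests were chosen with earlier results of these data known. Named genes were all members, genes of the pathway lists with an unadjusted p under 0.05 (up to 6 a list), and the 3 genes most like Slc34a1 and Nherf1 by Pearson r. Hnf4a, Slc2a2, Gatm, Myh11, Rgs5, Podxl, Esam, Egfl7, Pvalb, Itgam, Cd74, Cyp11b1, Hsd3b1 and Pheta1 fall outside that rule and were named after their values were seen. The lists for phosphate, for sodium and bicarbonate, for sulfate and dicarboxylate, and for kidney and neighbouring cell types are described with their counts. Python 3.11.15 with pandas 2.3.3, SciPy 1.17.1 and matplotlib 3.10.9 served for tables, permutation tests and figures.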

Additional observations from a re-analysis of the deposited data

Results flagged for a closer look

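Case animal 8 stood apart from the other Case animals at Nherf1 1387793_at, with a signal of 1021.3. Its distance to the next animal was 0.861 of the range of the group on the log2 scale, above the limit of 0.829 for 4 samples by Dixon's test. It was the 1 flag in 24 groups examined, and chance gives about 1 in 20.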

How the results depend on the processing

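No alternative brought a member past the threshold except leaving out Case animal 5, where 53 of all 9519 probe sets passed it. As single animals were left out, the count of members called ran from 0 to 1, and that of all probe sets from 0 to 53. The count of all probe sets called was 1 with a pseudocount of 50%, with no filter (in both, Pheta1), and with median centring (a probe set with no name here). The median over the 12 probe sets lay between -0.19 and 0.08 over 20 alternatives. Nherf1 1387793_at, Pdzk1, Slc9a3, Slc13a3, Slc26a1, Slc13a1 1370468_at and Slc4a4 1369756_a_at kept their sign under each alternative that gave a value. Nherf1 1370032_at also stayed below 0 where it had a value. It passed the filter only through the Controls, so nothing is read from its sign. Slc34a1 1368680_a_at turned to 0.081 with median centring, 0.066 with array weights, 0.13 with the actin ratio and 0.16 without Case animals 7 and 8, and ran from -0.11 to 0.13 with single animals left out. Without Case animals 7 and 8, Slc34a1 1370610_at turned to 0.12 and Slc13a1 1370467_at to 0.035. Slc4a4 1372479_at turned to -0.0175 with the run as a block. The causes were not tested. With the filter at the 60th percentile, Nherf1 1370032_at, Slc4a4 1369756_a_at and Slc13a1 1370468_at had no value. No paired analysis was possible because the groups share no animal numbers. Signals near the dim end of the array limit what Nherf1 1370032_at and Slc4a4 1369756_a_at can show.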
